A study of Mus musculus with 12 samples.

Results

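The 10 genes described here are transcription factors and feedback genes of the integrated stress response: Atf4, Atf5, Atf3, Ddit3, Cebpb, Cebpg, Trib3, Chac1, Ppp1r15a and Nupr1. They were taken by symbol, matched to the Ensembl identifiers of the count tables without their version numbers, and all 10 were found among 51875 nuclear features, of 51911 features in all. Total RNA of mouse hearts was sequenced in 12 libraries, 3 in each of 4 groups: Ptcd1 knockout (KO) RNA treated with CMC, untreated KO RNA, wild-type (WT) RNA treated with CMC and untreated WT RNA. PTCD1 is a mitochondrial pentatricopeptide repeat protein, and the study asked what its loss does to heart RNA. CMC is a carbodiimide that binds pseudouridine, and it was applied to RNA already isolated from the hearts. Every group had its cytoplasmic ribosomal RNA depleted with Ribo-Zero and went through TruSeq library preparation. The labels give no strain, age, sex, promoter behind any Cre recombinase or number of animals behind a library, so each p-value measures the spread between these libraries, which may be technical.

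This response is the programme by which a cell answers amino acid shortage, misfolded protein in the endoplasmic reticulum, viral RNA or a mitochondrial defect. Stress kinases phosphorylate the alpha subunit of the initiation factor eIF2, most protein synthesis slows, and a few mRNAs with upstream reading frames are translated better, foremost that of the transcription factor ATF4. ATF4 and the factors it induces then raise genes of amino acid supply and redox balance, together with inhibitors that shut the response down again. In the heart this programme is known as an answer to failing mitochondrial gene expression.

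Libraries held 10389398 to 12462093 counts, of which mitochondrial features took 70.5% to 75.4%, and 2683284 to 3187748 nuclear counts set the precision below. Levels are counts per 1000000 nuclear counts (nuclear CPM), with library sizes scaled by TMM, and are set per kb of gene length where genes are compared with each other. The knockout label was borne out by Ptcd1, at 6.75 ± 1.68 nuclear CPM in untreated KO and 25.8 ± 1.02 in untreated WT libraries (SD, n = 3 each). Its log2 fold change was -1.94 (SE 0.19, edgeR quasi-likelihood test with Benjamini-Hochberg adjustment, adjusted p = 1.47e-19). Replicate counts scattered little beyond counting error, with a chi-square per degree of freedom over nuclear genes of 1.20 to 1.36 in KO CMC, 1.12 to 1.21 in untreated KO and 1.12 to 1.13 in untreated WT libraries. Replicate 3 of WT CMC stood apart, at 2.08 and 2.43 against its fellow replicates, which differed from each other by 1.39. For comparisons that use this library, values of the 10 genes without it are given where they moved by over 1.5 times or lost a call, and calls of the lists are given without it as well.

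The tissue label held for heart muscle, and the makeup of the RNA differed with genotype. All 6 cardiomyocyte markers, such as Myh6 and Tnnt2, were detected in every library, and all 6 fell in untreated KO hearts, where their summed level ranged between 30353 and 30699 nuclear CPM, against 66679 to 69132 in untreated WT hearts. The 6 macrophage markers summed to 207 to 224 nuclear CPM in untreated KO and 156 to 164 in untreated WT libraries, and 3 of the 5 tested rose. Endothelial markers summed to 1067 to 1117 nuclear CPM in untreated KO and 1111 to 1181 in untreated WT libraries, with 3 of 6 lower and 1 higher. Fibroblast markers summed to 1898 to 1917 nuclear CPM in untreated KO and 1861 to 1958 in untreated WT libraries. The flat fibroblast sum held 3 genes called higher (Col1a1 0.64, Col1a2 0.69 and Col3a1 0.37 in log2 fold change) and 2 called lower (Pdgfra -0.64 and Dcn -0.57), named after their values were seen. Smooth muscle and pericyte markers summed to 1537 to 1565 nuclear CPM in untreated KO and 1870 to 1965 in untreated WT libraries, with 3 of 6 lower. Adipocyte markers summed to 44.9 to 52.6 in untreated KO and 76.2 to 86.0 in untreated WT libraries, with 3 of 4 tested lower. Red blood cell markers summed to 423 to 446 in untreated KO and 479 to 671 in untreated WT libraries, with 4 of 5 tested lower. Lymphocyte and neutrophil markers stayed at or under 4.02 nuclear CPM in untreated libraries. Beside these marker calls, 29.1% of all genes tested were called higher and 28.7% lower in untreated KO hearts. The part of these shifts in the results below was not tested, and in bulk tissue fewer cells of a type and less RNA per cell cannot be told apart.

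All 10 genes were higher in KO hearts, in every library. In untreated RNA the 10 were called higher and none lower, with log2 fold changes between 1.44 and 6.09 and a median of 2.84, while all 12195 genes tested had a median of -0.004. Of all genes tested, 29.1% were called higher by the same test, and 31.8% had every KO library above every WT library, as all 10 genes had. Together the 10 took 0.156% ± 0.002 of nuclear counts in untreated KO and 0.0183% ± 0.0003 in untreated WT libraries (SD, n = 3 each). Trib3, Atf3 and Chac1 passed the filter on low counts only through their KO libraries, so for them a difference was a condition of being tested, whereas the other 7 passed in WT libraries alone.

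**Figure D1:**
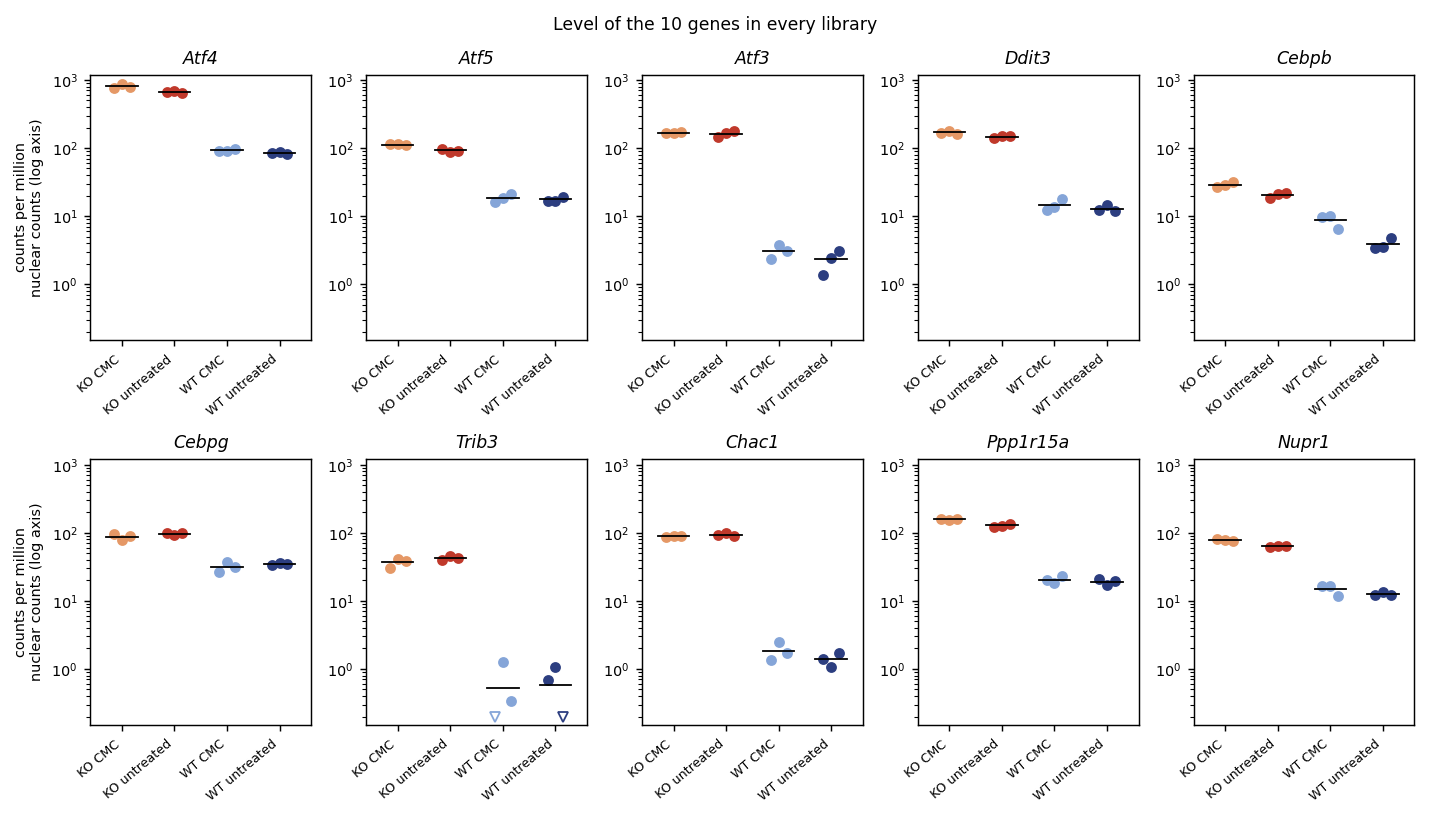
Level of each of the 10 genes in every library, in nuclear CPM on a log axis. Points are single libraries, bars are group means over 3 libraries, and open triangles mark libraries with 0 counts, drawn at the foot of the axis. For every gene all 3 KO libraries of a condition lay above all 3 WT libraries of that condition.

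The ATF factors. Atf4 (ENSMUSG00000042406.7, mm10 chromosome 15, 80255184 to 80257540, plus strand) encodes the central transcription factor of the response. It had 2131, 2104 and 2012 counts in untreated KO libraries, against 246, 251 and 238 in untreated WT libraries. No KO library came near a WT library: the lowest KO level was 7.32 times the highest WT level. Atf4 averaged 662 ± 18.1 nuclear CPM in untreated KO and 85.04 ± 3.04 in untreated WT hearts (SD, n = 3 each), a 7.70-fold rise (log2 fold change 2.95, SE 0.05, edgeR adjusted p = 3.22e-147). Atf5 (ENSMUSG00000038539.15, chromosome 7, 44812256 to 44816658, minus strand) encodes a close relative of ATF4 that is linked to the mitochondrial unfolded protein response. Its counts were 317, 272 and 280 in untreated KO against 49, 48 and 56 in untreated WT libraries. The rise was 5.14-fold (log2 fold change 2.36, SE 0.11, edgeR adjusted p = 9.93e-58). Atf3 (ENSMUSG00000026628.13, chromosome 1, 191170296 to 191218039, minus strand) encodes a stress-induced factor that often acts as a repressor. It was nearly silent in WT hearts, with 465, 519 and 548 counts in untreated KO and 4, 7 and 9 in untreated WT libraries. Over the groups that is 1532 against 20 counts, a scaled ratio of 70.2 (95% counting interval 45.3 to 115, which covers counting error only), and a log2 fold change of 6.09 (SE 0.15, edgeR adjusted p = 3.49e-112). By signed fold change Atf4 ranked 115 among the 12195 genes tested and Cebpg 502.

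CHOP and the C/EBP factors. Ddit3 (ENSMUSG00000025408.15, chromosome 10, 127290774 to 127296288, plus strand) encodes CHOP, which pairs with other C/EBP proteins and promotes cell death under lasting stress. It had 450, 456 and 474 counts in untreated KO and 35, 42 and 34 in untreated WT libraries. The KO libraries formed a tight set far above the WT libraries, and the rise was 11.2-fold (log2 fold change 3.49, SE 0.11, edgeR adjusted p = 1.17e-92). Cebpb (ENSMUSG00000056501.3, chromosome 2, 167688915 to 167690418, plus strand) encodes a bZIP factor of metabolism and inflammation that also pairs with ATF4. Its counts were low in both genotypes, 60, 66 and 67 in untreated KO and 10, 10 and 14 in untreated WT libraries. The log2 fold change was 2.35 with the widest error among the 7 genes that pass the filter in WT alone (SE 0.23, edgeR adjusted p = 1.73e-19). Cebpg (ENSMUSG00000056216.9, chromosome 7, 35046422 to 35056573, minus strand) encodes a short C/EBP partner of ATF4. It showed the smallest rise of the 10, with 317, 282 and 308 counts in untreated KO against 99, 101 and 102 in untreated WT libraries. That is a 2.72-fold rise (log2 fold change 1.44, SE 0.09, edgeR adjusted p = 4.08e-38), and its KO libraries still stood clear of its WT libraries.

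Feedback and effector genes. Trib3 (ENSMUSG00000032715.9, chromosome 2, 152337422 to 152344032, minus strand) encodes a pseudokinase that binds ATF4 and CHOP and restrains them. It had 127, 141 and 132 counts in untreated KO and 2, 3 and 0 in untreated WT libraries, where the library at 0 allows up to 1.03 nuclear CPM. Over the groups 400 counts stood against 5, a scaled ratio of 73.3 with a wide 95% counting interval of 31.1 to 227 (log2 fold change 6.08, SE 0.29, edgeR adjusted p = 1.24e-56). Chac1 (ENSMUSG00000027313.3, chromosome 2, 119351229 to 119354381, plus strand) encodes an enzyme that degrades glutathione. Its counts were 297, 304 and 284 in untreated KO and 4, 3 and 5 in untreated WT libraries, with a log2 fold change of 6.02 (SE 0.19, edgeR adjusted p = 9.52e-89). Both genes thus sat at the floor of detection in WT hearts and well above it in KO hearts. Ppp1r15a (ENSMUSG00000040435.12, chromosome 7, 45522916 to 45526268, minus strand) encodes GADD34, the inducible subunit that directs protein phosphatase 1 to eIF2 alpha and so restores translation. It had 396, 390 and 426 counts in untreated KO against 61, 48 and 56 in untreated WT libraries, a 6.65-fold rise (log2 fold change 2.73, SE 0.10, edgeR adjusted p = 1.06e-76). Nupr1 (ENSMUSG00000030717.9, chromosome 7, 126623249 to 126630861, minus strand) encodes a small stress-induced chromatin protein. Its counts were 200, 199 and 202 in untreated KO and 35, 39 and 35 in untreated WT libraries, a 4.99-fold rise (log2 fold change 2.32, SE 0.13, edgeR adjusted p = 3.73e-45).

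Some of these counts can hold reads of a neighbour, since the sources used here do not state whether counting used strand. Cebpb shares 312 of its 1504 exon bases, or 20.7%, with Tmem189 on the opposite strand, so its value is uncertain. The shares are smaller for Atf5 (82 bases with Nup62 and with Il4i1), Ddit3 (68 with Mars), Cebpg (73 with Gm44836 on the same strand) and Ppp1r15a (12 with Tulp2). Atf4, Atf3, Trib3, Chac1 and Nupr1 share no exon base with another gene in the deposited coordinates. In the authors' deposited table all 10 genes also had positive log2 fold changes, 0.02 to 0.12 above the edgeR values, with 2.96 for Atf4, 6.14 for Atf3 and 6.20 for Trib3. That table does not name its contrast, and its direction was read from Ptcd1, at -1.93 there.

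**Figure D2:**
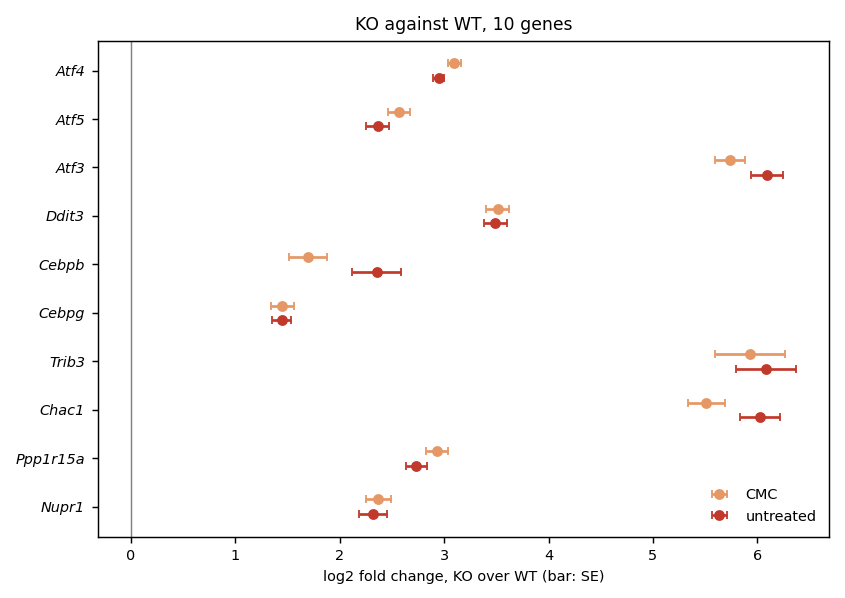
Log2 fold change of KO over WT for the 10 genes, after CMC and in untreated RNA, with SE as bars (3 libraries per group). Atf3, Trib3 and Chac1 lie between 5.51 and 6.09, and the other 7 between 1.44 and 3.51.

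The order of the genes by level per kb differed between genotypes. It rests on the deposited gene lengths, which can exceed the length of 1 transcript. Nupr1 has 2514 bases and Ddit3 1713, but their principal GENCODE M21 transcripts have 829 and 890 bases. The order, gaps and ranks below hold for the deposited lengths, and transcript lengths were not tried. In untreated KO hearts Atf4 led at 384 ± 10.5 nuclear CPM per kb (SD, n = 3), above 99.3% of the genes tested. Ddit3 (85.4 ± 3.77) and Atf3 (75.5 ± 7.70) came next and overlapped each other. Chac1 (57.3 ± 2.46) stood alone, Atf5 (46.1 ± 2.70) and Ppp1r15a (43.7 ± 2.48) overlapped, and then came Nupr1 (25.3 ± 0.623), Trib3 (19.96 ± 1.49), Cebpg (17.1 ± 0.735) and Cebpb (13.6 ± 1.10), each clear of the next. In untreated WT hearts Atf4 led as well, at 49.3 ± 1.76 nuclear CPM per kb, and above 94.2% of the genes tested. Atf5 (8.88 ± 0.705), Ddit3 (7.50 ± 0.966), Ppp1r15a (6.49 ± 0.717) and Cebpg (6.22 ± 0.123) followed, each overlapping the next. Nupr1 (5.02 ± 0.373) and Cebpb (2.61 ± 0.518) were lower, and Atf3 (1.07 ± 0.404) and Chac1 (0.847 ± 0.205), which overlapped, and Trib3 (0.274 ± 0.252) were last. Atf3 thus stood above 96.1% of the genes tested in KO hearts and above 7.37% of them in WT hearts. Chac1 stood above 94.7% of them in KO hearts and above 4.55% in WT hearts. Atf4 made up 49.99% of the summed level per kb of the 10 genes in untreated KO and 55.9% in untreated WT hearts, and Atf3 made up 9.83% in KO and 1.22% in WT hearts.

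**Figure D3:**
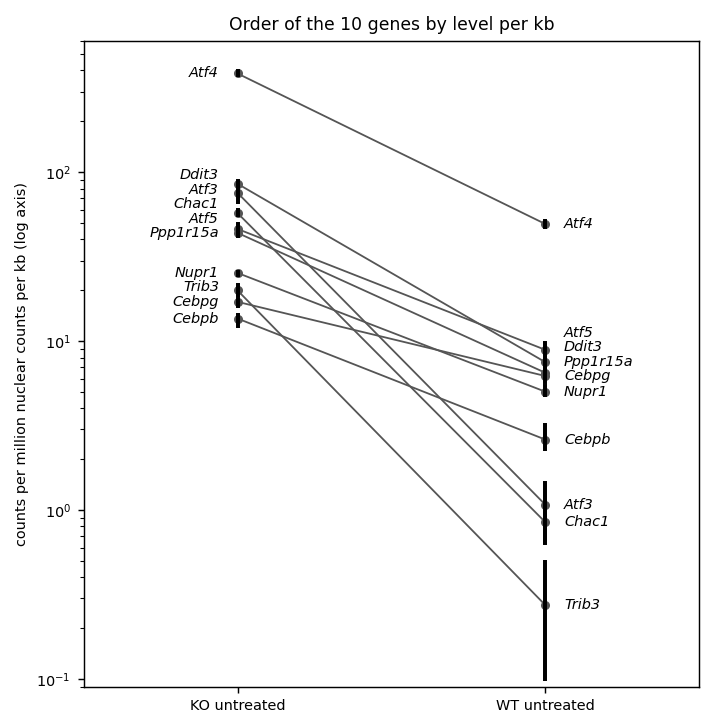
Mean level per kb of the 10 genes in untreated KO hearts (left) and untreated WT hearts (right), in nuclear CPM per kb on a log axis. Vertical bars span the lowest and highest of 3 libraries, and the bar of Trib3 in WT hearts runs to the axis foot because 1 library had 0 counts. Atf4 leads on both sides, and the lines of Atf3, Chac1 and Trib3 are the steepest.

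Replicates of most genes varied about as counting error predicts. The chi-square of the 3 counts per degree of freedom had a median over the 10 genes of 0.638 in KO CMC, 0.829 in untreated KO, 1.25 in WT CMC and 0.384 in untreated WT libraries. Atf3 was the exception in untreated KO hearts, at 5.40, with levels of 144, 168 and 176 nuclear CPM. In KO CMC libraries the exception was Atf4, at 9.22, where 1 library reached 861 nuclear CPM and the others 772 and 774.

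After CMC the same 10 genes were called higher in KO hearts and none lower, where 27.2% of 12198 genes tested were called higher. Every KO library again lay above every WT library for all 10, as for 30.8% of genes tested. Trib3, Atf3 and Chac1 again passed the filter only through their KO libraries, so for them a difference was a condition of being tested. Log2 fold changes ran between 1.45 for Cebpg and 5.93 for Trib3, with a median of 3.01. Atf4 averaged 802 ± 50.7 nuclear CPM in KO CMC and 92.0 ± 2.89 in WT CMC libraries (SD, n = 3 each), with a log2 fold change of 3.10 (SE 0.07, edgeR adjusted p = 4.76e-27). For each of the 10 the lowest KO library was at least 2.14 times the highest WT library. Cebpg had the smallest such ratio, with 297, 222 and 246 counts in KO CMC against 79, 117 and 91 in WT CMC libraries. The other log2 fold changes after CMC were 2.57 for Atf5, 5.73 for Atf3, 3.51 for Ddit3, 1.69 for Cebpb, 5.51 for Chac1, 2.93 for Ppp1r15a and 2.37 for Nupr1. Without replicate 3 of WT CMC all 10 stayed called, with 3.13 for Atf4, 5.74 for Atf3, 3.67 for Ddit3 and 1.53 for Cebpb. Atf3 had 527, 469 and 477 counts in KO CMC against 7, 12 and 9 in WT CMC libraries. Trib3 had 95, 118 and 106 against 0, 4 and 1, and the limit for the WT library at 0 is 3 counts. Both genes were again near the floor in every WT library. Ddit3 had 530, 508 and 447 counts in KO CMC against 37, 44 and 52 in WT CMC libraries. Chac1 had 268, 253 and 251 against 4, 8 and 5, and Ppp1r15a 503, 439 and 437 against 60, 58 and 67. Atf5 had 355, 320 and 305 counts in KO CMC against 48, 58 and 63 in WT CMC libraries, and Nupr1 258, 220 and 209 against 49, 52 and 35. These counts keep the split of the untreated libraries, with the 3 genes near the floor and the others well above it in WT hearts. By level per kb Atf4 led in KO CMC libraries at 465 and in WT CMC libraries at 53.4 nuclear CPM per kb, and Trib3 was last in WT CMC libraries at 0.250. The KO and WT libraries of this condition are other libraries than the untreated ones, but whether they came from the same hearts is not stated.

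Between CMC and untreated libraries several of the 10 genes differed by small amounts. In KO RNA 6 of the 10 were higher after CMC, where 12.1% of 11967 genes were called in either direction. Cebpb rose most, to 29.1 ± 2.88 nuclear CPM in KO CMC against 20.5 ± 1.65 in untreated KO libraries (log2 fold change 0.50, SE 0.14, edgeR adjusted p = 0.00922). Atf4 had 2425, 2437 and 2143 counts in KO CMC libraries and a log2 fold change of 0.27 (SE 0.04, edgeR adjusted p = 9.4e-08). Nupr1 (0.30), Ppp1r15a (0.29), Atf5 (0.28) and Ddit3 (0.21) rose by like amounts. The other 4 did not pass the test: 0.05 for Atf3, -0.09 for Chac1, -0.14 for Cebpg and -0.22 for Trib3. In counts, Cebpb had 83, 81 and 89 in KO CMC against 60, 66 and 67 in untreated KO libraries. The calls of Ddit3, Cebpb and Nupr1 hung on single libraries. Ddit3 lost its call without untreated KO replicate 1 or KO CMC replicate 2 (edgeR adjusted p = 0.0864 and 0.0954). Cebpb lost it without untreated KO replicate 1 or KO CMC replicate 3 (0.0634 and 0.0683), and Nupr1 without KO CMC replicate 1 (0.0625, all edgeR). With DESeq2 only Atf4 and Ppp1r15a of these 6 kept their calls.

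In WT RNA Cebpb alone of the 7 genes tested was called, where 2.23% of 12099 genes were called in either direction. It had 29, 32 and 19 counts in WT CMC and 10, 10 and 14 in untreated WT libraries. The log2 fold change was 1.15 (SE 0.29, edgeR adjusted p = 0.0249). Without WT CMC replicate 3 it was 1.33 (edgeR adjusted p = 0.00271), but it was not called when WT CMC replicate 1 or 2 or untreated WT replicate 1 or 2 was left out (edgeR adjusted p = 0.102 to 0.166). Atf4 (0.12), Nupr1 (0.24), Ddit3 (0.19), Ppp1r15a (0.09), Atf5 (0.07) and Cebpg (-0.15) did not pass the test, and Atf3, Trib3 and Chac1 had too few counts in WT libraries to be tested. Without WT CMC replicate 3 the values were 0.38 for Nupr1, 0.037 for Ddit3, 0.009 for Ppp1r15a and -0.037 for Atf5, none of them called.

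The KO against WT effect was not shown to differ between CMC and untreated RNA for any of the 10 genes, in a test of all 12 libraries that called 1.49% of 12786 genes in either direction. The nearest was Cebpb, whose effect was smaller after CMC by 0.65 on the log2 scale (SE 0.32, unadjusted p = 0.0452, edgeR adjusted p = 0.387), and it was the only one of the 10 with an unadjusted p below 0.05. DESeq2 also called none of the 10. The 95% interval of that difference ran between -1.27 and -0.03. For Atf4 the difference was 0.16 with an interval of -0.01 to 0.33, and for Trib3 it was -0.14 with an interval of -2.11 to 1.82, which leaves room for large differences at these counts. Without WT CMC replicate 3 again none of the 10 was called. The differences were then -0.82 for Cebpb (edgeR adjusted p = 0.156), -0.37 for Trib3, 0.33 for Atf5, 0.18 for Ddit3, 0.003 for Cebpg and -0.072 for Nupr1, against 0.22, 0.03, 0.01 and 0.06 with all libraries for Atf5, Ddit3, Cebpg and Nupr1.

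**Figure D4:**
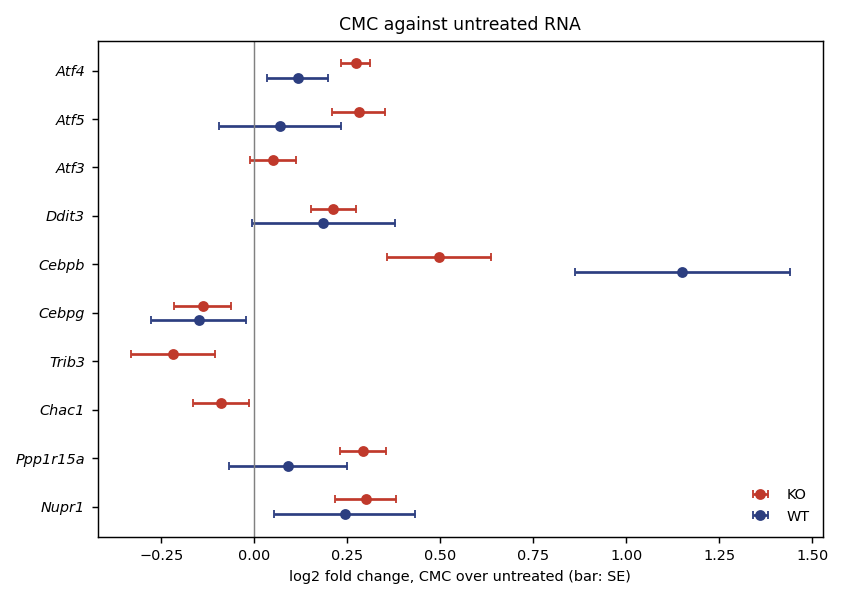
Log2 fold change of CMC over untreated RNA for the 10 genes, in KO and in WT hearts, with SE as bars (3 libraries per group). Cebpb lies farthest right in both, at 0.50 in KO and 1.15 in WT, and Atf3, Trib3 and Chac1 have no WT value because they were not tested there.

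Promoter sequences show what several of these genes share beyond their levels. RefSeq windows (GRCm38.p6, 250 bases before to 50 after the annotated start) were found for all 10 genes, 11 windows in all. The core of the composite site on which C/EBP and ATF proteins bind together was searched as TGATGNAA on both strands, as were all motifs below. It was present in 4 of the 11 windows, or 36.4%, in 27.6% of 29 windows of other ATF4 and CHOP target genes, and in 3.97% of 32851 windows of all genes. Atf3 and Nupr1 hold it 110 bases before the start, Chac1 193 bases before it and Trib3 15 bases after it, each on the opposite strand, so that the capitals below show its reverse complement. The starts of Atf3 and Nupr1 in RefSeq lie well inside the gene spans of the count tables, and so do their matches. That of Nupr1 falls within a UTR of a GENCODE M21 transcript, and that of Atf3 does not. A full cyclic AMP response element, TGACGTCA, lies 12 bases before the start of Ppp1r15a (1.79% of all windows hold one), and an AP-1 element, searched as TGANTCA, 242 bases before that of Ddit3 (7.81% of all windows). These letters are a description of the windows and not evidence of binding. The stretches, 5′ to 3′ on the gene's strand, have the matched letters in capitals.
Atf3, chr1:191183410-191183469: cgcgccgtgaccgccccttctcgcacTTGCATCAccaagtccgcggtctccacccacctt
Chac1, chr2:119351023-119351082: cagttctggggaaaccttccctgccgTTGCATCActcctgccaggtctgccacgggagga
Trib3, chr2:152344028-152344057: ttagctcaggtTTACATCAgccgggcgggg
Nupr1, chr7:126625562-126625591: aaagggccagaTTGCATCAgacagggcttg
Ppp1r15a, chr7:45526269-45526328: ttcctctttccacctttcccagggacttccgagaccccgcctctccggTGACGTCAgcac
Ddit3, chr10:127290543-127290602: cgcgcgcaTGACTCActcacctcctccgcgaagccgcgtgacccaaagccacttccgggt

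No relation between these letters and the size of a rise was tested, since 3 of the 4 genes with the composite core passed the filter only through their KO libraries. Atf4, Atf5, Cebpb and Cebpg hold none of the motifs searched within these windows. The endoplasmic reticulum stress element bound by ATF6 and XBP1, of CCAAT and CCACG with 9 bases between them, was found in no window of the 10 and in 0.119% of all windows.

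Upstream start codons, the feature by which several of these mRNAs are known to escape the general drop in translation, were counted in the leader of 1 principal GENCODE M21 transcript per gene. At least 1 was found in 7 of the 10 leaders (70%), against 54.5% of 20561 protein-coding genes and 48.4% of 31 other ATF4 and CHOP targets. The 10 leaders were longer, with a median of 247 bases against 171 over all protein-coding genes. The part of length was not tested. Ppp1r15a had 7, Atf4 3, Atf5 and Ddit3 2 each, and Atf3, Cebpg and Nupr1 1 each, whereas Cebpb, Trib3 and Chac1 had none. In Atf4, Atf5 and Ppp1r15a a reading frame from an upstream start runs across the main start, the arrangement by which ATF4 translation is known to be held low without stress. Such a frame was found in 17.9% of all genes and in 9.68% of the other ATF4 and CHOP targets. RNA counts carry no measure of translation.

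For each gene the protein-coding gene with the most similar course over the 12 libraries was looked up among 8778 with at least 10 nuclear CPM. Likeness was the root mean square difference of centred log2 levels. Atf4 lay nearest to the uridine-cytidine kinase gene Uck2 (0.12), which had 568 nuclear CPM in untreated KO and 60.7 in untreated WT hearts. Ppp1r15a lay nearest to Sars (0.15), the cytosolic seryl-tRNA synthetase. The muscle genes Ankrd1, encoding a stress-responsive titin partner, and Abra, encoding an actin-binding protein of striated muscle, were nearest to Atf5 (0.11) and Ddit3 (0.10). Chac1 was nearest to Tenm4 (0.20), Trib3 to Avil (0.31), Atf3 to the predicted gene Gm19410 (0.14), Cebpg to Prr13 (0.09) and Nupr1 to Rusc2 (0.10). Cebpb was nearest to Nr4a1 (0.30), an immediate early nuclear receptor, with Phlda3 (0.30) and Gm13889 (0.31) almost as near. All of these points share the same 12 libraries and the same split by genotype.

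Upstream of the 10 genes, the kinases of the response and their relays had small values, apart from Dele1. Over all genes tested 29.1% were called higher and 28.7% lower, and the shares of this list were near those. Of 8 genes for eIF2 kinases and their relays, all tested in untreated libraries, 3 rose, 2 fell and 3 were not called, with a median log2 fold change of 0.08. Impact, an inhibitor of the amino acid sensor GCN2, rose by 0.57 (SE 0.12), and Gcn1l1, the GCN2 activator, by 0.47 (SE 0.08). Dele1, which relays mitochondrial stress to the kinase HRI, was lower in KO hearts at -1.004 (SE 0.07), and so was Oma1, the mitochondrial protease that cleaves DELE1, at -0.36 (SE 0.13). Eif2ak1, the gene of HRI itself, rose by 0.24, a value named here because it completes the count. Oma1 lost its call without untreated KO replicate 2 (edgeR adjusted p = 0.0804), and Eif2ak1 when any one of 4 libraries was left out (edgeR adjusted p = 0.0529 to 0.116). The genes of PERK (Eif2ak3, -0.07), PKR (Eif2ak2, 0.04) and GCN2 (Eif2ak4, 0.11) did not pass the test. Kinase activity lies in phosphorylation, which these data do not measure.

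Genes of eIF2 and of factors that work with it rose more evenly. Of 14 genes for eIF2, its exchange factor eIF2B, eIF5, the separate factor eIF2A and eIF2 alpha phosphatase subunits, 11 rose, none fell and 3 were not called. Their median was 0.65, and over all genes tested 29.1% were called higher and 28.7% lower. Eif2s2, the beta subunit of eIF2, led with 226 ± 6.15 nuclear CPM in untreated KO and 67.5 ± 5.31 in untreated WT hearts (log2 fold change 1.73, SE 0.07, edgeR adjusted p = 3.28e-72). Eif2b3 (0.99), Eif5 (0.88) and Eif2s3x (0.76) followed. Ppp1r15b, which also counts among those 11 and is the constitutive counterpart of Ppp1r15a, rose by 0.66 (SE 0.11), against 2.73 for Ppp1r15a. Of the other relatives of the feedback genes, Trib2 was lower in KO hearts (-0.56, SE 0.10), while Trib1 (0.33) and Chac2 (-0.18) did not pass the test.

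Other members of the ATF and CREB family were called about as often as all genes. Of 11 other ATF and CREB genes tested, 3 rose, 3 fell and 5 were not called, with a median of 0.09, beside 29.1% higher and 28.7% lower over all genes. Atf6, a sensor of endoplasmic reticulum stress, rose by 1.02 (SE 0.04), Creb3 by 0.83 (SE 0.14) and Atf1 by 0.43 (SE 0.15). Crebl2 was lower at -0.80 (SE 0.19), as were Creb1 (-0.39) and Atf2 (-0.26), which are named because they complete the count. Atf1 lost its call without untreated KO replicate 3 or untreated WT replicate 2 (edgeR adjusted p = 0.073 and 0.0543), and Atf2 without any one of 4 libraries (edgeR adjusted p = 0.061 to 0.192). Of 3 other tested genes that bear a C/EBP name, Cebpd rose by 1.51 (SE 0.22) and Cebpz by 0.41 (SE 0.10), while Cebpa, at -0.31, did not pass the test. Of 16 tested AP-1, MAF and NFE2 genes, whose proteins can pair with ATF factors, 12 rose, 2 fell, among them Bach2 at -0.59, and 2 were not called, with a median of 0.98. Bach2 lost its call without any one of 5 libraries (edgeR adjusted p = 0.073 to 0.233). Maff (2.47), Fos (1.90), Mafk (1.75) and Nfil3 (1.52) led them.

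Targets downstream of ATF4 and CHOP rose with the 10 genes. Of 31 such genes 30 were tested, 28 rose and 2 fell, and their median log2 fold change of 2.55 stood beside 2.84 for the 10 genes and was also 2.55 with the 2 genes at 0 in WT set to a floor of 3 counts over the group. This list was drawn up with results of these data known and is no independent evidence of its direction. Of all genes tested 29.1% were called higher and 28.7% lower. Only 20 of the 31 had enough counts to be tested between CMC and untreated WT libraries. For others, such as Gdf15, Slc7a11, Fgf21 and Adm2, being high in KO hearts was thus a condition of being tested. Gdf15, a secreted stress hormone, had 939 counts over the 3 untreated KO libraries and 1 over the 3 WT libraries. Slc7a11, the cystine transporter, had 942 against 3, the hormone gene Fgf21 110 against 0 and the peptide hormone gene Adm2 72 against 0. The 2 that fell were Vldlr (-1.79), a lipoprotein receptor, and Bcl2l11 (-1.40), which encodes the pro-apoptotic protein BIM and is a known target of CHOP.

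**Figure D5:**
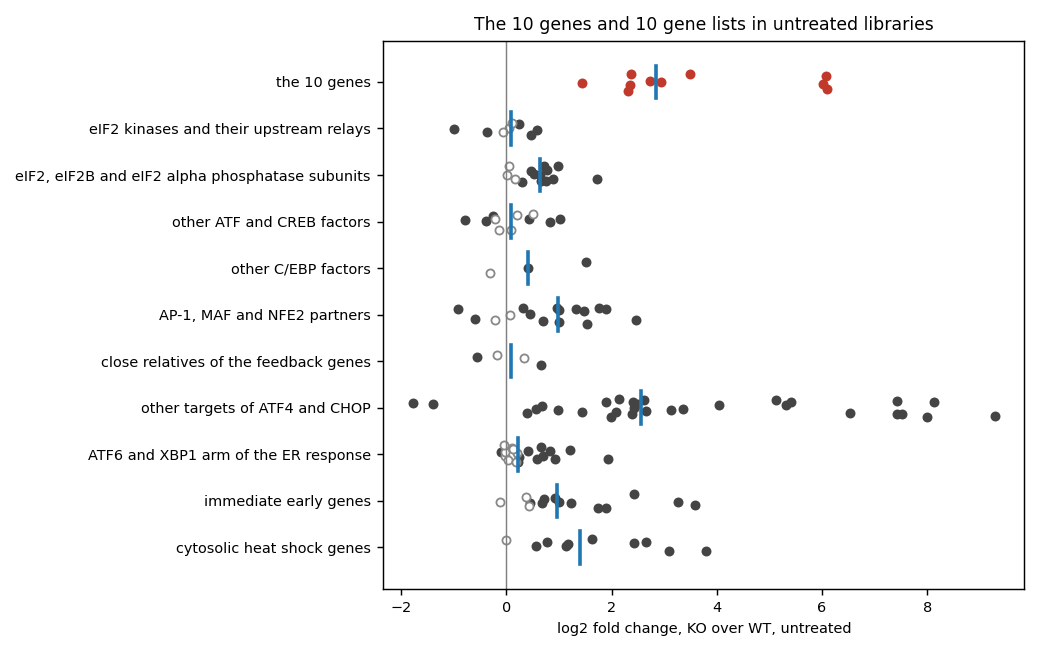
Log2 fold change of KO over WT in untreated libraries for the 10 genes and for the genes tested of 10 lists, 1 point per gene. Filled points passed the edgeR test at an adjusted p of 0.05, open points did not, and blue bars mark medians, which are 2.84 for the 10 genes, 2.55 for other ATF4 and CHOP targets and 0.22 for the ATF6 and XBP1 arm.

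The other arms of the unfolded protein response in the endoplasmic reticulum showed smaller values. Of 19 tested genes of the ATF6 and XBP1 arm, 10 rose, 1 fell and 8 were not called, with a median of 0.22. The shares over all genes tested were 29.1% higher and 28.7% lower. Ern1, the gene of the sensor IRE1 alpha, rose by 1.92 (SE 0.11), the cochaperone gene Dnajb9 by 1.21 (SE 0.10), Sec61b of the translocon by 0.93 (SE 0.29) and Derl1 of protein export by 0.82 (SE 0.09). The chaperone Hsp90b1, at -0.10, was the 1 called lower, and its value was 0.02 and not called with total nuclear counts as the scale. The call was also lost without untreated KO replicate 1 or 2 or untreated WT replicate 2 (edgeR adjusted p = 0.0632, 0.092 and 0.125).

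Heat shock and immediate early genes, which respond to stress of the cell or of the sample, were also higher. Calls over all genes tested were 29.1% higher and 28.7% lower. Of 10 cytosolic heat shock genes 9 rose and 1 was not called, with a median of 1.40 and values of 3.79 for Hspa1a, 3.10 for Hspa1b, 2.65 for Hsp90aa1 and 2.42 for Hspb1. Hspa1a and Hspa1b are near-identical copies, so how their reads were divided is uncertain. Of 14 tested immediate early genes 11 rose and 3 were not called, with a median of 0.97, led by Myc (3.59), Egr2 (3.27), Nr4a1 (2.43) and Fos (1.90). Myc, Egr2, Hspa1a and Hspa1b had too few counts to be tested between CMC and untreated WT libraries. For them being high in KO hearts was thus a condition of being tested. The summed level of all 18 listed immediate early genes was 385 to 413 nuclear CPM in untreated KO and 185 to 209 in untreated WT libraries. Atf3 and Cebpb are also known to respond early to such stress, and the part of these signals in their values was not tested.

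After CMC the lists gave like counts in KO against WT hearts, where 27.2% of all genes tested were called higher and 26.8% lower. For genes such as Gdf15, Slc7a11, Myc, Egr2, Hspa1a and Hspa1b being high in KO hearts was again a condition of being tested. Of the ATF4 and CHOP targets all 31 were tested, 28 rose, 2 fell and 1 was not called, with a median of 2.45 beside 3.01 for the 10 genes and -0.008 for all genes tested. The eIF2 and eIF2B list had 11 higher, 0 lower and 3 not called with a median of 0.56, and the kinases and relays 3 higher, 2 lower and 3 not called with a median of 0.23. The other ATF and CREB genes had 4 higher, 3 lower and 5 not called (median 0.24), and the ATF6 and XBP1 arm 10 higher, 1 lower and 8 not called (median 0.16). Of the AP-1, MAF and NFE2 genes 13 rose and 4 were not called (median 0.96), of the immediate early genes 12 rose and 3 were not called (median 1.13), and of the heat shock genes 9 rose and 1 was not called (median 1.28). Cebpa, not called in untreated RNA, was lower in KO hearts after CMC at -0.72 (SE 0.26, edgeR adjusted p = 0.0206; 0.0557 to 0.225 without KO CMC replicate 1 or 2 or WT CMC replicate 2), and Trib1 was higher at 1.08 (SE 0.20, edgeR adjusted p = 3.58e-05). Neither gene passed the test of the difference between the conditions (edgeR adjusted p = 0.765 and 0.191). Without WT CMC replicate 3 Cebpa was at -0.91 and Trib1 at 0.92, both called. Among the list counts after CMC, that library's absence left 1 relay gene called lower, 3 ATF and CREB, 12 AP-1, MAF and NFE2 and 11 ATF6 and XBP1 arm genes called higher, and the other counts of calls given here as they were. The medians were computed with all libraries.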

How the data were processed

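Per the file headers, the authors deposited raw counts per gene, with featureCounts columns, separately for untreated and CMC libraries. The deposited tables also hold each gene's exon coordinates and its length in bases, another unit. A separate table deposited by the authors gives a baseMean signal, a log2 fold change with its SE and an adjusted p-value per gene. The submitters' processing notes list the build mm10 and, as tools, DESeq2 1.16.1, featureCounts 1.5.1, HISAT2 2.0.5 and SAMtools 1.5. Neither strandedness nor the annotation release is stated in the labels. The ontology and per-base tables were not used.

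The 36 mitochondrial features were left out, leaving 51875. Each of 5 comparisons used edgeR 4.0.16 in R 4.3.3: filterByExpr with a minimum count of 10, TMM, the quasi-likelihood test and Benjamini-Hochberg adjustment over all genes tested, called at 0.05. Comparisons of 2 groups used their 6 libraries, and the difference of effects all 12. The SE is the log2 fold change divided by the square root of F. The test was checked on simulated counts. Alternatives were DESeq2 1.42.0, other scalings, no filter, a replicate block, a joint fit and each library left out. Counting intervals are exact at 95%, and a library at 0 counts allows up to 3.

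The 10 genes and 10 gene lists were chosen with earlier results of these data known. Named were the 10 genes and, per list, up to 4 called genes with the largest change in untreated KO against WT, or, where fewer than 4 were called, these and up to 2 abundant ones not called, and the 1 nearest gene in likeness (log2 with a prior count of 2). Names that only complete a count of 5 or fewer, the fibroblast markers, Calr and Bag3 were chosen after their values were seen. Gene names came from a GENCODE M21 table, and 51596 features matched one. Deviations of same-numbered replicates were little correlated, which cannot show whether they share hearts. 1 called gene of the AP-1, MAF and NFE2 list is not reported here by name.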

Additional observations from a re-analysis of the deposited data

Results flagged for a closer look

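For 2 genes of the lists the KO against WT effect differed between CMC and untreated RNA in the edgeR test of that difference. Of all 12786 genes tested, 1.49% were called in either direction. In the ATF6 and XBP1 arm 1 of 20 tested genes was called, among heat shock genes 1 of 10, and in the other lists none. Calr, an endoplasmic reticulum chaperone gene, had a log2 difference of 0.32 (SE 0.08, edgeR adjusted p = 0.0147), with KO over WT effects of 0.26 after CMC and -0.05 in untreated RNA. It averaged 439 ± 15.3 nuclear CPM in KO CMC, 364 ± 4.07 in untreated KO, 360 ± 37.5 in WT CMC and 372 ± 18.0 in untreated WT libraries (SD, n = 3 each). Bag3, a cochaperone gene of the heat shock list, had a log2 difference of 0.36 (SE 0.09, edgeR adjusted p = 0.0266), with effects of 0.35 after CMC and -0.001 in untreated RNA. It averaged 225 ± 14.5 nuclear CPM in KO CMC, 178 ± 9.91 in untreated KO, 174 ± 19.2 in WT CMC and 177 ± 4.37 in untreated WT libraries. Both are small effects. With replicate 3 of WT CMC left out they were 0.40 for Calr and 0.45 for Bag3. Calr was not called without any one of 6 libraries, which were untreated KO replicate 3, untreated WT replicates 2 and 3, KO CMC replicate 1 and WT CMC replicates 1 and 2 (0.27 to 0.31, edgeR adjusted p = 0.056 to 0.0773). Bag3 was not called without any one of 8 libraries, which were untreated KO replicates 1 and 2, untreated WT replicates 1 and 2, KO CMC replicates 1 and 2 and WT CMC replicates 1 and 2 (0.29 to 0.37, edgeR adjusted p = 0.0527 to 0.15).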

How the results depend on the processing

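All 10 genes were called higher in KO hearts, in untreated RNA and after CMC, under every alternative run, including each library left out. Scaling by total nuclear counts with no further factor moved the median of all genes by 0.12 in untreated RNA and raised the share of higher calls to 61.5%, against 50.4%. It raised that share to 60.7%, against 43.3%, for CMC in WT RNA, and lowered it to 52.0%, against 73.7%, for the difference of effects. With that scaling 187 genes were called higher for CMC in WT RNA (117 as reported), and 89 higher and 82 lower for the difference of effects (140 and 50), while values of little size changed sign: Hsp90b1 0.018 (untreated KO against WT), Bach2 0.021 (after CMC), and Ddit3 -0.019 and Cebpg -0.036 (difference of effects). DESeq2 called 326 genes higher and 179 lower for CMC in KO RNA (810 and 639 with edgeR), 2 of the 10 genes among them, 33 and 55 in WT RNA (117 and 153), 0 of the 10 among them, and 69 and 27 for the difference (140 and 50). In WT RNA 1 of the 10 genes was called by edgeR. The fit of all 12 libraries called 202 higher and 234 lower for CMC in WT RNA. The causes were not tested. DESeq2 also took the untreated calls of Oma1, Atf1, Sec61b and Eif2ak1 (adjusted p = 0.174, 0.136, 0.0881 and 0.19).

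With each library left out in turn, CMC in WT RNA had 24 to 344 genes called higher, 49 to 406 lower and 0 to 1 of the 10 genes, and the difference of effects 54 to 422 higher and 24 to 199 lower, the highest without WT CMC replicate 3. Values that changed sign, none of them called, were Atf3 for CMC in KO RNA (-0.030 to 0.11), Atf5 for CMC in WT RNA (-0.037 to 0.16), Chac2 (-0.16 to 0.048), Sec61b (-0.24 to 0.057) and Bach2 (-0.34 to 0.10) in KO against WT after CMC, and the differences for Ddit3 (-0.077 to 0.18), Cebpg (-0.095 to 0.15), Nupr1 (-0.072 to 0.14) and Trib3 (-0.82 to 1.35).

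Deviations of same-numbered libraries from their group means had correlations of -0.08 to 0.03. Between CMC and untreated libraries of the same genotype these were -0.02 to 0.03. Most replicates scattered little beyond counting error, so such values cannot show whether libraries of the same number share hearts. A fit with the replicate block called 3538 genes higher in untreated KO against WT hearts (3549 as reported), 3237 after CMC and the same number of the 10 genes in each comparison. Depth limits Trib3, Chac1 and Atf3 most, at 0 to 12 counts per WT library.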
